A study of Mus musculus with 4 samples.

Results

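The genes described here encode proteins that Paneth cells store in their secretory granules: Lyz1, Defa24, Ang4, Itln1 and Mmp7. They are 5 of the 19938 genes that a probe set with a single gene symbol names on the array, and each was taken from the 1 probe set that carries its symbol alone. Of the 5 genes, 4 lay above the limit for low readings and entered the fit of 13956 genes, and Itln1 did not. Probe sets that the platform annotation gives to several genes, with at least 1 alpha-defensin (Defa) symbol among them, numbered 6 and are described apart.

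The RNA came from the small intestine of C57BL/6 mice and was measured on 4 single-colour Affymetrix arrays. CFLARs Tg mice, which carry a transgene for the short form of the caspase-8 regulator encoded by Cflar, gave 2 arrays, titled XCFX and XCFY. Wild-type mice gave the other 2 arrays, titled XX and XY. XCFX and XX are called XX-type arrays below, and XCFY and XY are called XY-type arrays, which is a reading of the titles. The titles do not say whether XCFX and XCFY carry the same dose of the transgene. A difference of dose could not be told apart from sex type within CFLARs Tg. Not given in the sources used here are the age of the mice, the intestinal segment, the number of animals behind an array and the promoter that drives the transgene. Per its title, the series deals with epithelial necroptosis and ileitis in preterm mice, and the comparison asks how intestinal gene expression differs between the genotypes.

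Paneth cells sit at the base of the small intestinal crypts, between the Lgr5-positive stem cells, and release antimicrobial proteins into the crypt lumen from large apical granules. Lysozyme cleaves bacterial cell walls, alpha-defensins disrupt bacterial membranes, and angiogenin 4 is a secreted ribonuclease with microbicidal activity. In mice, alpha-defensins are stored as inactive precursors, and the metalloproteinase matrilysin, encoded by Mmp7, cleaves them to the active peptides. Mouse Itln1 encodes intelectin, a lectin that binds microbial sugars.

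The 250 bases upstream of the start of Lyz1 are shown beside those of its neighbouring paralogue Lyz2, the lysozyme gene of myeloid cells, because the readings of both genes followed the same order over the 4 arrays. The sequences are those of RefSeq on mouse assembly GRCm38.p6, written 5′ to 3′ on the strand of the gene, which is the minus strand for both. Lyz1 is at chr10:117292869-117293118 and Lyz2 at chr10:117282273-117282522. Capitals mark the letters that differ between the pair when the sequences are aligned.
Lyz1: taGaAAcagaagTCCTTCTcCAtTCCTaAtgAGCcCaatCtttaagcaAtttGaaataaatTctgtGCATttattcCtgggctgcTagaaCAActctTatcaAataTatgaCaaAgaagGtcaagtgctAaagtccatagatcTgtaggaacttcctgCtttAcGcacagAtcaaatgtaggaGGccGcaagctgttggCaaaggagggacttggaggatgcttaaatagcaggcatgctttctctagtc
Lyz2: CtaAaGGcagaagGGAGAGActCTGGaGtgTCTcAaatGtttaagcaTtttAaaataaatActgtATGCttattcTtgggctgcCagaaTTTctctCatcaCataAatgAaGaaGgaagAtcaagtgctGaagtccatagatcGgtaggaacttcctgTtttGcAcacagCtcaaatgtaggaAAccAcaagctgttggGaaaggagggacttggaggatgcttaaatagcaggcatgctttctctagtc
Of 252 aligned columns, 200 were identical (79.4%) and 4 held a gap. The capitals are scattered over the far part of the window, and the stretch next to the start is the same in both.

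The matching windows of Mmp7 and Ang4 are shown because each holds a match to the AP-1 motif, TGANTCA, which is in capitals. Mmp7 is at chr9:7691840-7692089 on the plus strand and Ang4 at chr14:51773591-51773840 on the minus strand of the same assembly.
Mmp7: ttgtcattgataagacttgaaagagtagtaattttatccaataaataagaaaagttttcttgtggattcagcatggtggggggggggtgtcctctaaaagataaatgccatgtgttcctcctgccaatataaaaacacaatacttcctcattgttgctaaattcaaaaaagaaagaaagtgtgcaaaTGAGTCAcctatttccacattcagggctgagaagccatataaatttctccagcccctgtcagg
Ang4: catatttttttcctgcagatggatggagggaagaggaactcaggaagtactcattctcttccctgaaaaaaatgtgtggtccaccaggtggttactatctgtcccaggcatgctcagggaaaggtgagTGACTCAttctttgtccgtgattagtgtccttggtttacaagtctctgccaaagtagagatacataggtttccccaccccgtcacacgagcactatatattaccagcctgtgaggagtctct
The match in Mmp7 is TGAGTCA, 63 to 57 bases before the start, and that in Ang4 is TGACTCA, 122 to 116 bases before it. Both strands were searched in windows of 250 bases, and 6.85% of 27025 RefSeq promoters hold such a match. The core of the TCF/LEF motif, CTTTGA or CTTTGT, was found in Lyz1, 140 to 135 bases before the start, and in Ang4, 113 to 108 bases before it, and in 27.8% of all promoters. The TATA box letters TATAAA were found in Mmp7, 123 to 118 and 26 to 21 bases before the start, and in 13.0% of all promoters. The matches are descriptions of these letters and were not tested as binding sites. No letters of these 3 motifs overlapped, and Itln1 had no match to any of them in its window.

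All readings below are the deposited log2 expression values, and differences are CFLARs Tg minus wild-type on that scale. The array medians lay between 8.31 and 8.33, and identical values were shared by at most 33 of 28856 probe sets between 2 arrays. Cflar read 9.49 and 9.30 in CFLARs Tg, against 9.34 and 9.29 in wild-type, and since the part of the transgene that the probes match is not known it does not check the genotype labels. Xist, the RNA of the inactive X chromosome, followed the titles, at 12.9 on both XX-type arrays. Xist on the XY-type arrays and 3 Y-linked genes on the XX-type arrays read 5.13 to 6.78, which serves here as the range of a gene that is absent. The epithelial genes Vil1 (11.99 to 12.21) and Epcam (12.28 to 12.47) read far above that range on all 4 arrays, as the tissue label implies. The wild-type XY array stood apart in pancreatic acinar enzyme genes: their linear readings summed to 2663 and 1842 on the XCFX and XCFY arrays, against 2845 and 11994 on the XX and XY arrays. The 2 CFLARs Tg arrays differed from each other more than the wild-type arrays did, with an SD of 0.246 against 0.15 over the log2 differences of all genes fitted.

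All 4 fitted granule genes had a higher mean in CFLARs Tg than in wild-type intestine, by 1.83-fold to 3.08-fold. Their median difference was 1.16, against -0.01 for all genes fitted. None of the 4 passed an adjusted p of 0.05 in limma fitted over all genes (2 arrays against 2), where 8.44% of genes did so in the direction of higher readings in CFLARs Tg. At an unadjusted p under 0.05, 3 of the 4 passed, as did 39.1% of all genes fitted in either direction. When the sex type of the titles was entered as a block, all 4 passed, and 10.1% of genes passed upward. Both CFLARs Tg arrays lay above both wild-type arrays for 3 of the 4 genes and for 32.0% of the genes fitted. The call therefore depends on how the gap between XX-type and XY-type arrays is handled, and both values are given for each gene.

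**Figure D1:**
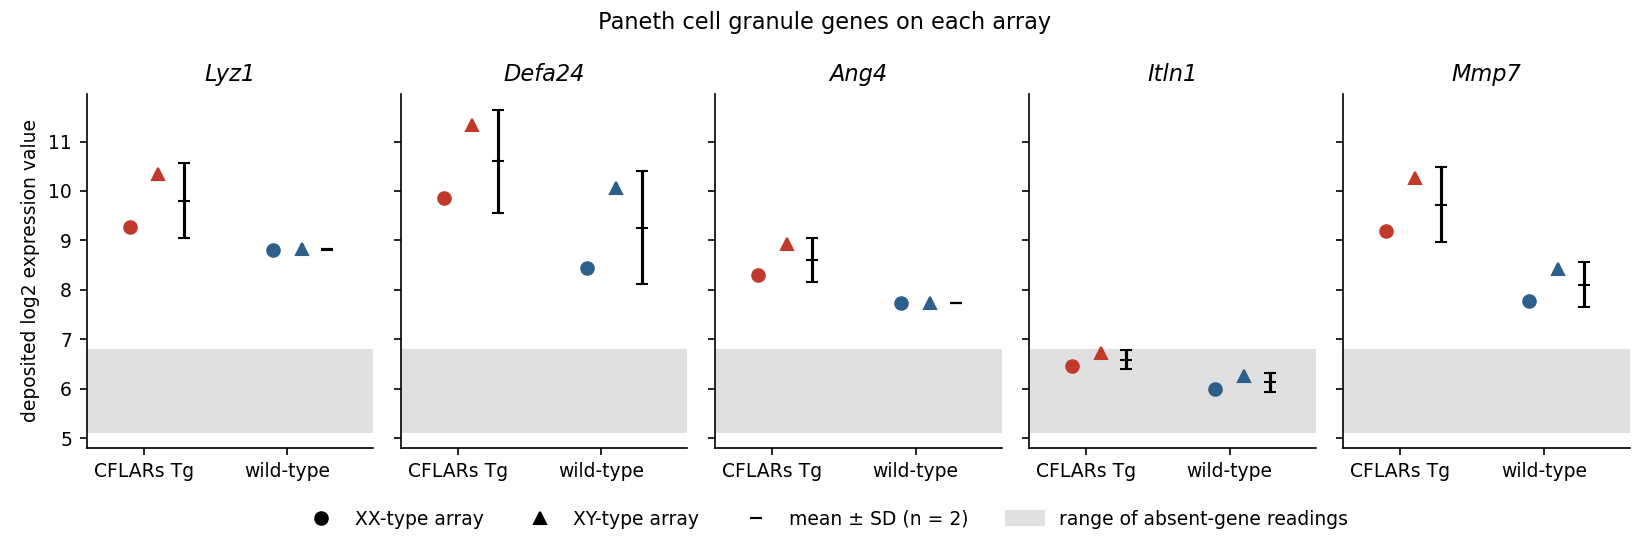
Deposited log2 expression value (y axis) of each granule gene on the 2 CFLARs Tg arrays and the 2 wild-type arrays (x axis), with circles for XX-type and triangles for XY-type arrays, bars for the mean ± SD (n = 2) and a grey band for the 5.13 to 6.78 range of absent genes. The XCFY triangle is the highest point in every panel, and Itln1 alone lies inside the band.

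Lyz1, on chromosome 10, encodes the lysozyme of Paneth cells. It read 9.27 on the XCFX array and 10.35 on the XCFY array, against 8.81 on the XX array and 8.83 on the XY array. The wild-type readings were nearly equal, and both CFLARs Tg readings lay above them, the XCFY reading by far the more. The means were 9.80 ± 0.76 in CFLARs Tg and 8.82 ± 0.01 in wild-type (SD, n = 2 each), a 1.98-fold difference. On the log2 scale the difference was 0.98 (SE 0.36, 95% interval 0.04 to 1.93), and limma's adjusted p was 0.118. With sex type as a block, the interval was 0.36 to 1.61 and the adjusted p 0.0457. That call was lost when the limit on low readings was dropped as well (adjusted p = 0.0524).

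The reading of Lyz1 cannot be assigned to Paneth cells with certainty from the array alone, since Lyz2 is a close paralogue on the same chromosome and probes can take up RNA of both. Lyz2 read 10.34 on the XCFX array and 11.11 on the XCFY array, against 9.70 and 9.78 on the XX and XY arrays. Its difference of 0.99 (SE 0.26, limma adjusted p = 0.0610, and 0.0191 with the block) was close to that of Lyz1. The order of the arrays was the same in both genes, with XCFY highest and both wild-type arrays lowest. Among 13 macrophage and monocyte markers with a probe set of their own, 11 were fitted and 10 had a higher mean in CFLARs Tg, and the summed linear readings of the list were 6792 and 9335 in CFLARs Tg, against 6004 and 6062 in wild-type. The largest differences on the list were those of Itgam (1.22) and Cd14 (1.11). Adgre1, Csf1r and Cx3cr1, on the same list, differed by 0.15, 0.04 and -0.12 and did not pass with or without the block. Only Mpeg1, a pore-forming protein gene of macrophages, passed (difference 0.75, SE 0.16, limma adjusted p = 0.0438), and 5 of the 11 passed with the block. Of all genes fitted, 8.44% rose without the block and 10.1% with it. The part of these cells in the reading of Lyz1 was not tested. In whole tissue, fewer or more cells of a type and less or more RNA per cell cannot be told apart.

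Defa24, on chromosome 8, encodes a precursor of an alpha-defensin, the peptide family that makes up much of the Paneth cell granule. It read 9.86 on the XCFX array and 11.34 on the XCFY array, against 8.44 on the XX array and 10.06 on the XY array. Here the groups overlapped: the wild-type XY reading lay above the CFLARs Tg XCFX reading. The means were 10.60 ± 1.05 in CFLARs Tg and 9.25 ± 1.14 in wild-type (SD, n = 2 each), a 2.54-fold difference. The difference of 1.35 had an SE of 0.72 and a 95% interval of -0.55 to 3.24 (limma adjusted p = 0.237). With sex type as a block it had an SE of 0.08 and an interval of 1.14 to 1.55 (adjusted p = 0.00231).

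The 2 fits differ in how they treat the sex types. The XY-type reading of Defa24 was above the XX-type reading by 1.48 in CFLARs Tg and by 1.62 in wild-type, so that the difference between genotypes was 1.42 between the XX-type arrays and 1.28 between the XY-type arrays. Each of these pair differences rests on 1 array a side and has no test. Within CFLARs Tg, the XCFY array had the higher Defa24 reading and the lower summed acinar reading, while within wild-type the XY array had the higher value of both. The part of acinar RNA in the reading of Defa24 was not tested.

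The 6 probe sets that stand for several alpha-defensin genes at once showed the same direction as Defa24, with smaller differences. They carry 4 to 9 symbols each and 15 symbols in all, in 4 different combinations, and 3 of the probe sets share the combination of Defa27, Defa-ps1, Defa28, Defa23, Defa17, Defa3, Defa25 and Defa31. All 28 Defa genes in the annotation lie on chromosome 8, and members of this cluster are near-identical copies, so no reading here can be given to a single gene with certainty, that of Defa24 included. Over the 6 probe sets the XCFX readings ran from 8.10 to 9.31 (median 8.91) and the XCFY readings from 8.87 to 10.14 (median 9.29). The XX readings ran from 7.34 to 8.76 (median 8.44) and the XY readings from 7.95 to 9.12 (median 8.56). Within every one of the 6, both CFLARs Tg arrays lay above both wild-type arrays, as they did in 32.9% of the 20199 probe sets fitted.

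The differences of these probe sets were 0.57 to 0.84 with a median of 0.68, or 1.48-fold to 1.79-fold. In a limma fit over all probe sets, 0 of the 6 passed (adjusted p 0.0552 to 0.156, 3 of the 6 at an unadjusted p under 0.05), where 6.20% of probe sets passed upward. With sex type as a block, all 6 passed (adjusted p 0.0100 to 0.0231), where 7.74% of probe sets passed upward. The largest difference was that of a probe set with the 8 shared symbols, at 0.84 (SE 0.33, 95% interval -0.03 to 1.71). It read 9.25 and 10.14 in CFLARs Tg, against 8.64 and 9.07 in wild-type. The smallest was that of the probe set for Defa23, Defa22, Defa21 and Defa31, at 0.57 (SE 0.13, interval 0.23 to 0.91). Unlike Defa24, neither of these had a wild-type array above a CFLARs Tg array.

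Defa39 is the only other alpha-defensin with a symbol of its own on the array. Its readings were 7.56 and 7.65 in CFLARs Tg, against 6.77 and 6.95 in wild-type, so that one wild-type reading lay inside the range of absent genes. Its mean over the 4 arrays, 7.23, was under the limit for the gene fit and above the lower limit of the probe-set fit through the CFLARs Tg readings alone, so only its difference of 0.75 is given, without a test.

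**Figure D2:**
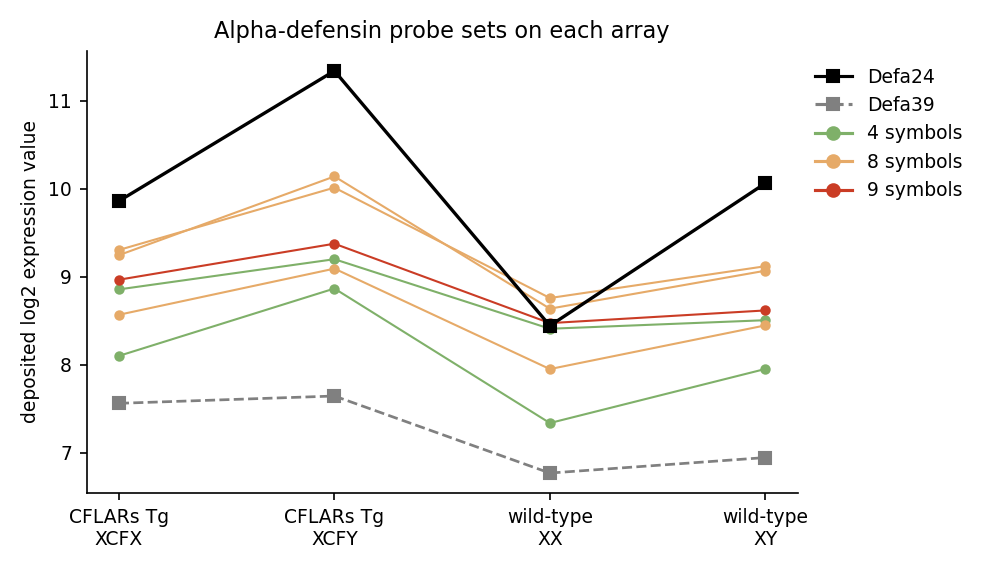
Deposited log2 expression value (y axis) of the alpha-defensin probe sets on the 4 arrays (x axis), with the probe sets of Defa24 and Defa39 as squares and the 6 probe sets with several symbols as circles coloured by their number of symbols. Lines join the readings of 1 probe set, and every probe set is highest on the XCFY array and lowest on the XX array.

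Ang4, on chromosome 14, read 8.30 on the XCFX array and 8.92 on the XCFY array, against 7.73 on the XX array and 7.74 on the XY array. As with Lyz1, the wild-type arrays were nearly equal and both CFLARs Tg arrays were above them. The means were 8.61 ± 0.44 in CFLARs Tg and 7.74 ± 0.0041 in wild-type (SD, n = 2 each), a 1.83-fold difference. The log2 difference was 0.88 (SE 0.21, 95% interval 0.32 to 1.43), with a limma adjusted p of 0.0526, and of 0.0208 with sex type as a block. Centring each array on its median moved it to the other side of the threshold (adjusted p = 0.0499). The other ribonuclease genes of the angiogenin family were mostly too low to fit: of the relatives of Lyz1, Ang4 and Itln1, 14 of 17 had a probe set of their own and 3 were fitted, namely Lyz2, Rnase1 and Rnase6. Rnase1, the pancreatic-type ribonuclease, read 9.07 and 9.25 in CFLARs Tg, against 8.85 and 10.10 in wild-type, highest on the array with the high acinar readings. Rnase6 read 7.73 and 7.93 in CFLARs Tg, against 7.77 and 7.85 in wild-type, with a difference of 0.02 (SE 0.09).

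Itln1, on chromosome 1, could not be told from an absent gene. It read 6.45 and 6.72 in CFLARs Tg, against 5.99 and 6.26 in wild-type, and all 4 readings lie inside the range of 5.13 to 6.78. The groups did not overlap, with a difference of 0.46. A fit without the limit on low readings gave it a limma adjusted p of 0.0910, and of 0.0198 with the block. No level is given for it.

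Mmp7, on chromosome 9, had the largest difference of the 4 fitted genes. It read 9.18 on the XCFX array and 10.26 on the XCFY array, against 7.78 on the XX array and 8.42 on the XY array. All CFLARs Tg readings were above the wild-type ones, and in both genotypes the XY-type reading was the higher. The means were 9.72 ± 0.76 in CFLARs Tg and 8.10 ± 0.45 in wild-type (SD, n = 2 each), a 3.08-fold difference. The log2 difference was 1.62 (SE 0.42, 95% interval 0.53 to 2.71, limma adjusted p = 0.0585). With sex type as a block the SE was 0.12, the interval 1.31 to 1.93 and the adjusted p 0.00379.

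**Figure D3:**
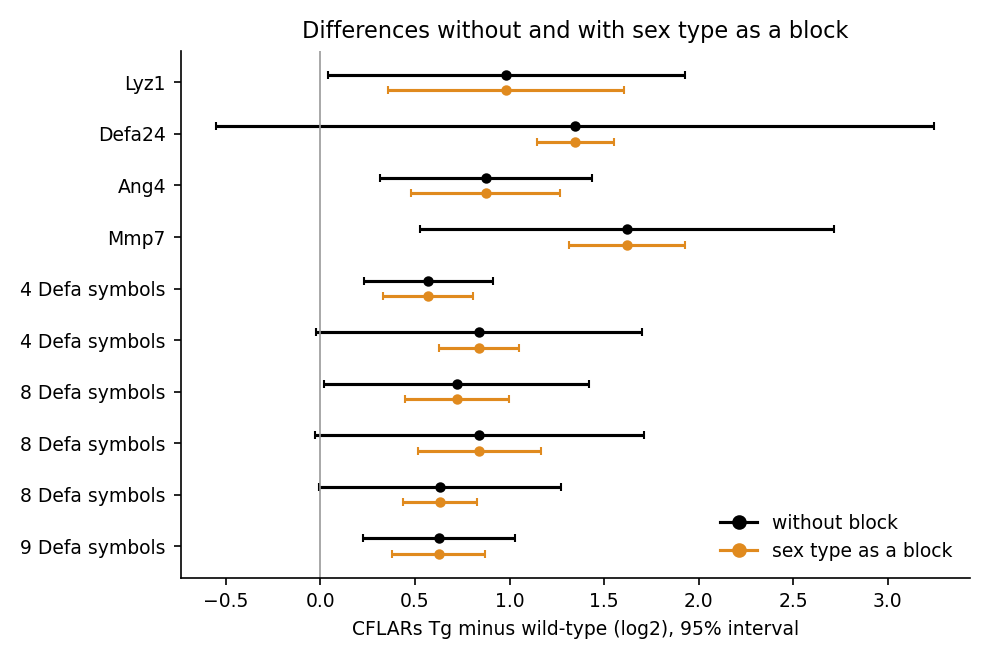
Difference between CFLARs Tg and wild-type (x axis, log2) with its 95% interval for each fitted granule gene and each alpha-defensin probe set with several symbols (rows), in black without a block and in orange with sex type as a block. The points are the same in both fits, and the interval narrows most for Defa24, from -0.55 to 3.24 without the block to 1.14 to 1.55 with it.

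Split by sex type, the genes fell into different patterns. In the XX-type pair (XCFX minus XX) the differences were 0.45 for Lyz1, 0.56 for Ang4, 1.40 for Mmp7 and 1.42 for Defa24. In the XY-type pair (XCFY minus XY) they were 1.52 for Lyz1, 1.19 for Ang4, 1.84 for Mmp7 and 1.28 for Defa24. Lyz1 and Ang4 thus differed more in the XY-type pair, while Defa24 differed about as much in both. The 6 alpha-defensin probe sets with several symbols differed by 0.45 to 0.76 between the XX-type arrays and by 0.64 to 1.07 between the XY-type arrays. The differences between pairs have no residual degrees of freedom and were not tested. Whether the dose of the transgene differs between XCFX and XCFY is not known.

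Each array was left out in turn, which leaves 1 array in its group, so only differences are given here. Without the XCFX array they were 1.52 for Lyz1, 2.16 for Mmp7, 1.19 for Ang4 and 2.09 for Defa24. Without the XCFY array they were 0.44 for Lyz1, 1.08 for Mmp7, 0.56 for Ang4 and 0.61 for Defa24. In each of these fits the group with 1 array is assumed to vary like the other group. Over the 4 fits the difference of Lyz1 ran from 0.44 to 1.52, that of Mmp7 from 1.08 to 2.16, that of Ang4 from 0.56 to 1.19 and that of Defa24 from 0.54 to 2.16. Without the wild-type XY array, the one with high acinar readings, the differences were 0.99 for Lyz1, 1.94 for Mmp7, 0.88 for Ang4 and 2.16 for Defa24.

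**Figure D4:**
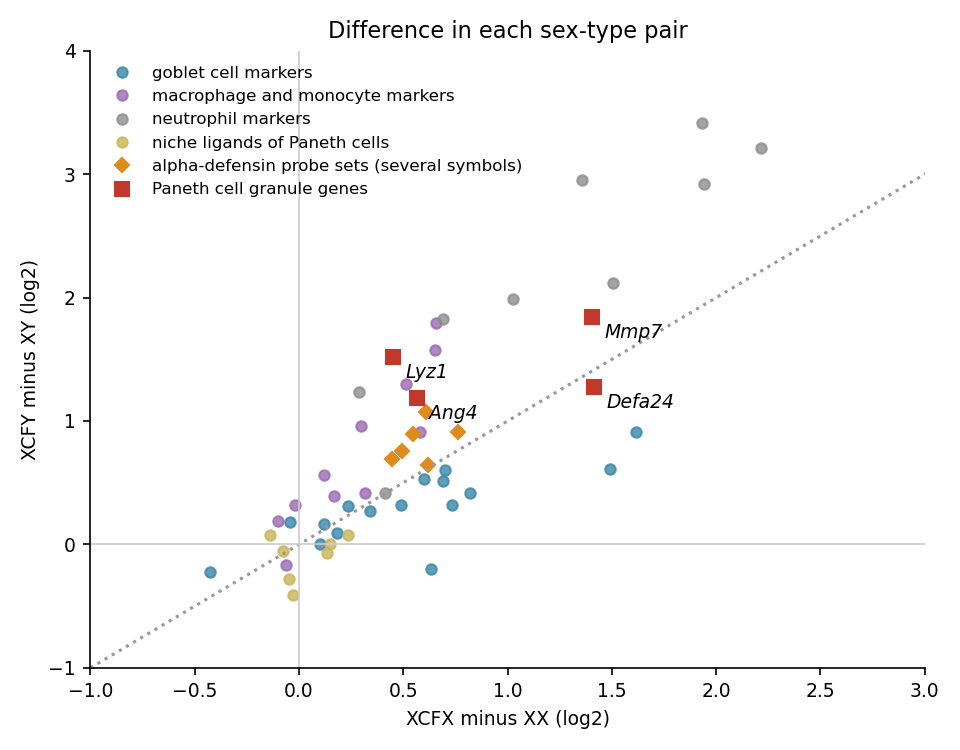
Difference in the XX-type pair (x axis, XCFX minus XX, log2) against the difference in the XY-type pair (y axis, XCFY minus XY, log2), 1 array a side, for fitted genes of the granule list, of 4 other lists and for the alpha-defensin probe sets with several symbols, with a dotted line of equal differences. Lyz1 (0.45 and 1.52) lies above the line, and Defa24 (1.42 and 1.28) lies just below it.

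Other secreted products and markers of Paneth cells were split. Of 16 genes on this list, 15 had a probe set of their own and 13 were fitted, 8 with a higher and 5 with a lower mean in CFLARs Tg. The 5 were Clps (difference -0.43), Pnliprp2 (-0.26), Guca2b (-0.11), Reg4 (-0.10) and Habp2 (-0.06). Clps read 9.91 and 10.15 in CFLARs Tg, against 9.35 and 11.58 in wild-type. Pnliprp2 read 8.37 and 8.10 in CFLARs Tg, against 8.29 and 8.70 in wild-type. Both read highest on the wild-type XY array, the one with high acinar readings. XCFX minus XX was 0.56 for Clps and 0.07 for Pnliprp2, and XCFY minus XY was -1.42 and -0.60. Habp2 changed sign too, while Guca2b and Reg4 were lower for both sex types. The part of acinar RNA in these readings was not tested. Of the 13, 4 rose, 0 fell and 9 did not pass (median difference 0.24), where 8.44% of all genes rose. With the block 5 rose, Mptx1 being added, where 10.1% of all genes rose. The C-type lectins Reg3g and Reg3b, which are also made by enterocytes, rose most. Reg3g read 13.00 and 13.12 in CFLARs Tg, against 7.34 and 7.59 in wild-type (difference 5.60). Reg3b rose by 5.13 (SE 0.13, limma adjusted p = 0.000957). The wild-type means of Reg3g and of the cytokine gene Tnf (difference 1.20) lay under the limit for the fit. These 2 of the 4 genes were fitted only because of their CFLARs Tg readings, so the count of 4 is a description. The stress protein gene Nupr1 rose by 0.75 (SE 0.12, limma adjusted p = 0.0270). The pentraxin gene Mptx1, a product of mouse Paneth cells, read 10.03 and 10.48 in CFLARs Tg, against 9.24 and 10.05 in wild-type, so that its groups overlapped and its XY-type readings were the higher, as with Defa24 (difference 0.61, SE 0.31, adjusted p = 0.219, and 0.0208 with the block). Only the calls of Reg3g and Reg3b remained when either wild-type array was left out, and the call of Mpeg1 and every call without the block in the lists that follow were lost in both of those fits.

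Among transcription factors of the Paneth and secretory lineages, 19 of 20 had a probe set and all 19 were fitted. Higher means in CFLARs Tg were found for 16 of them, with a median difference of 0.22, against -0.01 for all genes fitted. Without the block 4 rose and 0 fell, where 8.44% of all genes rose. With it 9 rose, where 10.1% of all genes rose. Foxa1 rose by 0.58 (SE 0.08, limma adjusted p = 0.0212). Spdef, a factor of goblet and Paneth cell maturation, rose by 0.45 (SE 0.08). Xbp1, a factor of the unfolded protein response that Paneth cells need for their granules, rose by 0.34 (SE 0.07), and the Wnt effector Tcf7l2 by 0.34 (SE 0.06). Atoh1, which commits crypt cells to the secretory lineage, read 9.81 and 10.09 in CFLARs Tg, against 9.19 and 9.61 in wild-type (difference 0.55, SE 0.18, adjusted p = 0.0898, and 0.0141 with the block). Sox9, needed for Paneth cells in mice, read 9.89 and 10.30 in CFLARs Tg, against 9.90 and 9.85 in wild-type, a difference of 0.22 (SE 0.15). In size, each of these differences was smaller than those of the 4 fitted granule genes.

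The ligands by which Paneth cells feed the stem cells did not pass. Of 8 genes, 7 were fitted, and 0 passed with or without the block (unadjusted p under 0.05 in 0 of the 7, median difference -0.03). The Notch ligand gene Dll1 read 9.64 and 9.28 in CFLARs Tg, against 9.67 and 9.70 in wild-type, and Egf read 7.85 and 7.80 in CFLARs Tg, against 7.61 and 7.72 in wild-type. Wnt3 read 6.96 to 7.01 on the 4 arrays, under the limit for the fit. Of 10 stem cell markers, 3 fell and 1 rose, where 10.9% of all genes fitted fell and 8.44% rose without the block. Lgr5, the receptor gene that marks crypt stem cells, fell by 0.44 (SE 0.10, limma adjusted p = 0.0462), Olfm4 by 0.43 (SE 0.06) and Msi1 by 0.27 (SE 0.06), while the Wnt target Axin2 rose by 0.30 (SE 0.06). With the block 3 fell, with Tnfrsf19 in place of Msi1, where 12.2% of all genes fell. The call of Axin2 was lost with the block (limma adjusted p = 0.0506), so that 0 rose, where 10.1% of all genes did.

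Of 19 genes of granule secretion and autophagy, 18 were fitted, 2 rose and 0 fell (median difference -0.05), where 8.44% of all genes rose. With the block 3 rose and 2 fell, where 10.1% of all genes rose and 12.2% fell. Irgm1, an interferon-induced GTPase that acts in autophagy, rose by 1.50 (SE 0.18, limma adjusted p = 0.0187). Lrrk2, a kinase needed for lysozyme sorting in mouse Paneth cells, rose by 0.59 (SE 0.08), with wild-type readings of 8.51 on both arrays. Rab27a, a GTPase of granule release, read 8.84 and 9.26 in CFLARs Tg, against 8.57 and 8.68 in wild-type, and passed with the block (adjusted p = 0.0408). The proton pump subunit gene Tcirg1 read 11.26 and 10.88 in CFLARs Tg, against 11.61 and 11.65 in wild-type, and was lower with the block (adjusted p = 0.0308).

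Goblet cells are the other main granule-bearing secretory cells of the epithelium. Of 18 goblet cell markers, 17 had a probe set and 16 were fitted, 15 of them with a higher mean in CFLARs Tg. Without the block 1 rose, the Golgi calcium pump gene Atp2c2 (difference 0.60, SE 0.14, limma adjusted p = 0.0468), and with it 9 rose (median difference 0.35). Of all genes fitted, 8.44% rose without the block and 10.1% with it. The summed linear readings of the list were 41518 and 51638 in CFLARs Tg, against 24626 and 37443 in wild-type, with the XY-type array the higher in both genotypes. Zg16, a lectin-like protein gene of goblet cell granules, read 11.50 and 12.10 in CFLARs Tg, against 9.89 and 11.19 in wild-type (difference 1.26, SE 0.47, adjusted p = 0.125, and 0.0123 with the block). Its difference was 0.61 without the XX array and 1.91 without the XY array. The mucus protein gene Clca1 read 12.61 and 12.94 in CFLARs Tg, against 11.12 and 12.33 in wild-type, and its difference was 0.44 without the XX array and 1.65 without the XY array. The trefoil peptide gene Tff3 read 13.06 and 13.26 in CFLARs Tg, against 12.25 and 12.85 in wild-type. In all 3 the wild-type XX array was the lowest, as in Defa24, and in none of the 3 did the genotypes overlap. How far the share of secretory cells in each sample moved these readings was not tested.

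Of 12 enteroendocrine markers fitted, 2 fell and 0 rose, where 10.9% of all genes fell. Sst, the somatostatin gene, fell by 0.60 (SE 0.06, limma adjusted p = 0.0168) and Ghrl, the ghrelin gene, fell by 0.38 (SE 0.06). With the block Gip fell too, where 12.2% of all genes fell. Of the 13 fitted genes of tuft cells and type 2 immune responses, 3 rose: the mast cell protease gene Mcpt2 by 1.16 (SE 0.15, adjusted p = 0.0199), the eotaxin gene Ccl24 by 0.81 (SE 0.16) and the receptor gene Il13ra1 by 0.49 (SE 0.06). With the block, Il4ra was added. Of all genes fitted, 8.44% rose without the block and 10.1% with it. The tuft cell genes Dclk1, Trpm5, Gfi1b and Il25 did not pass with or without the block (differences 0.06, -0.18, -0.01 and -0.08). Of the 12 epithelial genes, 9 had a lower mean in CFLARs Tg. Krt20 rose by 1.35 (SE 0.17) and Krt8 by 0.33 (SE 0.07), and 0 fell, where 8.44% of all genes rose and 10.9% fell. Fabp1 and Fabp2 had lower means without passing (differences -0.81, SE 0.33, and -0.72, SE 0.27). With the block 2 rose, the same genes, and 2 fell, Lct and Alpi, where 10.1% of all genes rose and 12.2% fell. The lactase gene Lct read 12.57 and 11.03 in CFLARs Tg, against 13.27 and 13.32 in wild-type, lowest on the array with the highest granule gene readings, and passed with the block (adjusted p = 0.0410).

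Of 14 neutrophil markers, 9 were fitted, 7 rose and 0 fell, where 8.44% of all genes rose, and 8 rose with the block, where 10.1% did. In 6 of the 7 the wild-type mean lay under the limit for the fit, so these genes were fitted only because of their CFLARs Tg readings, and the count is a description. With the lowest 50% of genes left out, 0 passed, as none of the 7 was then fitted. S100a9, which encodes a calcium-binding protein of neutrophils, read 9.36 and 10.57 in CFLARs Tg, against 7.15 and 7.36 in wild-type. S100a8, its partner, read 8.50 and 10.32 in CFLARs Tg, against 6.57 and 6.90 in wild-type. The chemokine receptor gene Cxcr2 read 8.53 and 9.75 in CFLARs Tg, against 6.59 and 6.83 in wild-type. The XX readings of S100a8 and Cxcr2 lie inside the range of absent genes, so no fold is given. The summed linear readings were 4705 and 10049 in CFLARs Tg, against 2456 and 2564 in wild-type, and so, as with Lyz1 and Ang4, the XCFY array stood above XCFX while the wild-type arrays were alike. The part of these cells in the readings of the granule genes was not tested.

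The genes whose profile over the 4 arrays was nearest to each granule gene were found by the Euclidean distance between log2 values centred on the gene mean. Nearest to Lyz1 were Tlr13, a receptor for bacterial RNA, at a distance of 0.038, Phlda2 at 0.112 and the Fc receptor gene Fcgr2b at 0.112. Nearest to Ang4 were the myeloid transcription factor gene Spi1 at 0.049, Anxa1 at 0.055 and the leukocyte integrin gene Itgb2 at 0.061. Nearest to Mmp7 were the neutrophil surface gene Ly6g at 0.421, the chitinase-like gene Chil1 at 0.429 and the interleukin-1 antagonist gene Il1rn at 0.436. Nearest to Defa24 were Sval1 at 0.570, the goblet cell gene Zg16 at 0.666 and Mmp7 at 0.795. With 4 arrays, many genes can come near any profile, and the distances are descriptions without a test. Among the granule genes, Ang4 stood at rank 33 of nearness to Lyz1, at 0.338, whereas Defa24 stood at rank 5817, at 1.223. In the other direction, Lyz1 stood at rank 180 of nearness to Ang4 and at rank 32 of nearness to Defa24. The ranks thus depend on the gene from which they are counted. The granule genes thus did not share 1 profile: Lyz1 and Ang4 had level wild-type readings, and Defa24 had an XY-type excess in both genotypes, with Mmp7 between them.

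**Figure D5:**
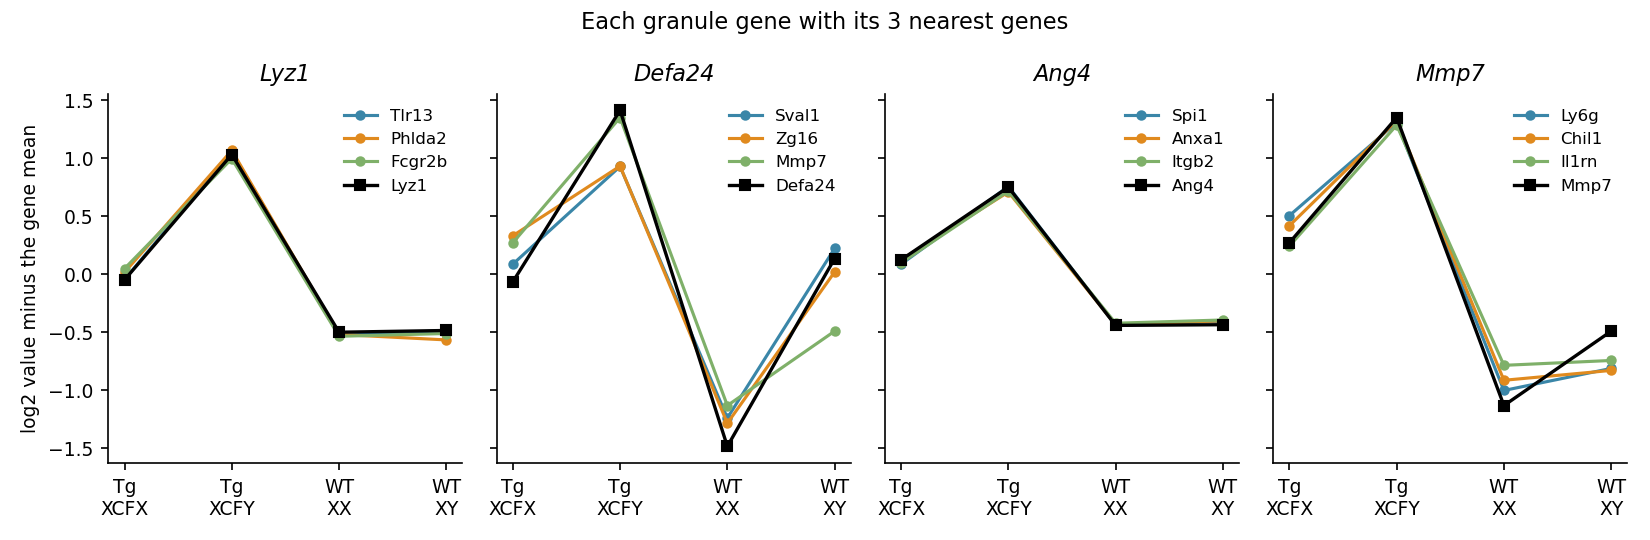
Log2 value minus the gene mean (y axis) on the 4 arrays (x axis, Tg for CFLARs Tg and WT for wild-type) of each fitted granule gene in black and of its 3 nearest genes in colour. Lyz1 and Ang4 are level on the wild-type arrays, while Defa24 climbs between the arrays XX and XY by 1.62.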

How the data were processed

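Total RNA from small intestine, extracted with Trizol and labelled with biotin per the labels' protocols, was measured on 4 Affymetrix arrays. The authors deposited a table of log2 values for 28856 probe sets. How it was summarised and normalized is not given in the sources used here. Its readings ran from 4.33 to 14.55, with 0 missing, and were used as deposited. Gene symbols came from the platform annotation, which gave a single symbol to 21789 probe sets, several to 1621 and none to 5446. Each gene took its probe set with the highest mean, and 30% of genes, with means under 7.48, were left out (for probe sets, under 7.19).

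Groups came from the genotype labels. CFLARs Tg and wild-type were compared with limma 3.58.1 in R 4.3.3 (lmFit and eBayes, no covariates, 2 residual and 2.64 prior degrees of freedom), with Benjamini-Hochberg adjustment over all genes or probe sets fitted, at 0.05. With sex type as a block, 1 residual degree remained (prior 4.18). Differences carry limma's moderated SE and interval, and levels the mean ± SD. Nothing in the labels says that arrays of a genotype came from separate animals, so p-values measure only the spread between these arrays, which may be technical, and their number limits the precision. The code was tested on simulated data. Promoters were aligned with Biopython 1.88. The rule for naming took in the granule genes, the Defa probe sets, up to 4 fitted genes of each list with the largest absolute difference, all called ones where a list had 5 or fewer, and the 3 nearest genes of each granule gene. Not every gene under this rule is named in the text. Mptx1, Sox9, Wnt3, Il4ra, Vil1, Epcam, Defa39, Clps, Pnliprp2, Guca2b, Reg4, Habp2, Adgre1, Csf1r, Cx3cr1, Dclk1, Trpm5, Gfi1b, Il25 and Alpi were added after their values were seen. The granule genes and lists were chosen with earlier results of these data known. Other settings tried were no limit or a 50% limit on low readings, quantile normalization, median centring, a mean-variance trend, the block, a minimum difference of 0.5, the median of a gene's probe sets and leaving out each array.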

Additional observations from a re-analysis of the deposited data

Results flagged for a closer look

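Several results had opposite signs in the 2 pairs of arrays, with 1 array a side, and the difference between the pairs was not tested. Rnase1 differed by 0.23 in the XX-type pair (XCFX minus XX) and by -0.85 in the XY-type pair (XCFY minus XY). Rnase6 differed by -0.04 between the XX-type arrays and by 0.0827 between the XY-type arrays. The acinar lipase gene Pnliprp1 differed by 0.11 and by -4.22, and the carboxypeptidase gene Cpb1 by 0.28 and by -3.05, in the XX-type and the XY-type pair. The Y-linked gene Kdm5d, which reads as absent on XX-type arrays, differed by 0.09 and by -0.315, and Uty, also Y-linked, by 0.05 and by -0.24. None of the granule genes changed sign between the pairs.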

How the results depend on the processing

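All 5 granule genes kept a higher mean in CFLARs Tg under every setting run. In the main fit, which had no block, 0 of the 4 fitted granule genes passed. Of the 6 alpha-defensin probe sets with several symbols, 0 passed in that fit. The counts were 4 and 6 with sex type as a block, and 1 and 1 with each array centred on its median. With the block and no limit on low readings, a setting added after the data were seen, 4 granule genes passed, Itln1 (difference 0.46) in place of Lyz1. The block left the differences as they were, at 0.98 for Lyz1, 1.62 for Mmp7, 0.88 for Ang4 and 1.35 for Defa24, and median centring gave 0.87 for Ang4. Leaving out each array in turn gave 0 to 4 granule genes, 0 to 6 alpha-defensin probe sets, and 40 to 6559 genes in all, against 2695. The differences then ran from 0.44 to 1.52 for Lyz1, 1.08 to 2.16 for Mmp7, 0.56 to 1.19 for Ang4, 0.54 to 2.16 for Defa24 and 0.32 to 0.60 for Itln1. A minimum difference of 0.5 left 63 genes in all and 0 granule genes. The causes were not tested. The labels give the arrays no shared replicate numbers, and the block on the sex type in the titles, with 1 array per genotype and type, was the paired fit run. Readings near the range of absent genes, such as those of Itln1, limit what a difference can show.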
